A study of Saccharomyces cerevisiae with 11 samples.

Results

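This account sets yeast cells that carry the SCC2 variant G1242V on a plasmid against cells that carry the same plasmid without SCC2 (empty vector). The libraries were taken by their labels: 3 of G1242V and 2 of the empty vector, 5 of the 11 in the series, which also holds 3 of the variant R787G and 3 of SCC2 WT. All cells were Saccharomyces cerevisiae W303 of mating type a with the alleles his3-11,15, ade2-1, can1-100 and trp1-1, and with the 2 leu2 alleles numbered 3 and 112. All carried OsTIR1 under the ADH1 promoter at ura3-1, and a chromosomal SCC2 fused to an auxin-inducible degron (SCC2-AID*-6FLAG). The plasmid pRS413, which carries the HIS3 marker, held scc2-G1242V-7MYC, scc2-R787G-7MYC, nothing, or SCC2-7MYC. Cells grew in medium without histidine and were harvested after 9 h with 1 mM IAA, an auxin. Auxin leads the degron-tagged protein to degradation, so the treatment targets the chromosomal product in every group, and the empty vector cells had no other copy. Protein was not measured here. The cultures reached a range of densities at harvest, and the density of single cultures was not given. RNA was ribosomal RNA-depleted total RNA, and values are TPM, a relative transcript abundance within a library, scaled between libraries so that the typical well-expressed gene is level. Differences are log2 fold changes ± SE of scaled TPM + 1, G1242V minus empty vector, and a gene is called changed at a limma adjusted p under 0.05. The added 1 shrinks the fold changes of weakly expressed genes. The 2 empty vector libraries limit every comparison. Each SE and p-value comes from a single fit to all 11 libraries, so it also draws on the spread within R787G and WT. A p-value speaks of the spread between cultures, which the labels do not trace to separate transformants.

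Scc2 and its partner Scc4 form the loader that places cohesin, a ring of SMC proteins, onto chromosomes. Cohesin holds sister chromatids together until anaphase and folds chromosomes into loops, and Scc2 also stimulates the ATPase of the ring. Budding yeast needs Scc2 to divide, and the human counterpart, NIPBL, is mutated in Cornelia de Lange syndrome. The G1242V variant changes a glycine late in the 1493 codons of SCC2 (YDR180W). On the plus strand of the reference, with that codon in capitals, chrIV:824973-825065 of RefSeq R64, the assembly also called sacCer3, reads as follows.
SCC2: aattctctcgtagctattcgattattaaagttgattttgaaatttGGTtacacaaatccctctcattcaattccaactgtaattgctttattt
The codon shown is that of the reference, since the deposited values hold no reads.

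Within groups the libraries resembled each other, but genes of single chromosomes set some of them apart. Genes of chromosome I stood a median of 0.60 (log2) above their mean over 11 libraries in G1242V replicate 2, against 0.005 and -0.088 in the other G1242V replicates and -0.34 and -0.35 in the empty vector. Genes of chromosome IX stood at 0.22 in G1242V replicate 3 and between -0.103 and -0.075 in the other 4 libraries compared here. Changes of genes on these chromosomes carry this difference, and such genes are named with their chromosome. Pheromone genes fitted the mating type label. The a-factor genes MFA1 and MFA2 lay between 50.7 and 401 scaled TPM in the 5 libraries. The alpha-factor gene MF(ALPHA)1 lay between 3.75 and 8.13, and the alpha-type genes MF(ALPHA)2 and STE3 did not exceed 7.0. SAG1, also of alpha cells, fitted less well. Empty vector replicates 1 and 2 held 40.0 and 36.6 of SAG1, above their 33.3 and 32.8 of BAR1, an a-type gene. The G1242V replicates held 21.1 to 22.4 of SAG1, below their 56.0 to 58.0 of BAR1. Leftover ribosomal RNA made up 0.155% to 0.494% of the TPM in the 5 libraries compared. It was 9.19% in WT replicate 2, which is part of the 11-library fit.

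SCC2 itself was detected in both groups. It stood at 78.1, 96.9 and 96.4 scaled TPM in G1242V, against 23.9 and 22.5 in the empty vector, or 90.4 ± 10.7 (SD, n = 3) against 23.2 ± 0.988 (SD, n = 2). Every G1242V library lay above both empty vector libraries, by 1.91 ± 0.14 (limma adjusted p = 1.01e-05), a 3.76-fold difference. The empty vector cells held SCC2 only as the degron-tagged chromosomal gene, and TPM do not separate this copy from the plasmid copy in G1242V. HIS3, the plasmid marker and a gene of histidine synthesis, stood at 1955, 2413 and 1907 scaled TPM in G1242V, and at 1036 and 832 in the empty vector, higher by 1.16 ± 0.21 (limma adjusted p = 0.00101). HIS3 averaged 908 ± 173 in R787G and 832 ± 177 in WT (SD, n = 3 each), and G1242V was higher than R787G by 1.21 (limma adjusted p = 0.00103). Reads of the plasmid marker and of the chromosomal his3 allele cannot be told apart. Whether plasmid copy number or transcription differed was not tested. SCC4, the loader partner, fell slightly, with 18.5, 18.2 and 18.2 scaled TPM in G1242V, against 22.4 and 21.5 in the empty vector (-0.25 ± 0.07, limma adjusted p = 0.0131). This call was lost under quantile normalization (-0.06, adjusted p = 0.473) and without empty vector replicate 1 (adjusted p = 0.091).

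With the G1242V plasmid, RNAs of respiration, glycolysis, purine, arginine and histidine synthesis, histones and cell separation were higher than with the empty vector, as were those of most ribosomal proteins on 3 of the 4 scalings tried. RNAs of ribosome assembly, heat shock chaperones, proteasome, iron uptake, meiosis and sporulation were lower. Of 6432 features tested, 4051 differed (63.0%), with 1646 higher in G1242V (25.6%) and 2405 lower (37.4%). By at least 2-fold, 272 were higher (4.23%) and 543 lower (8.44%). The median of all features was -0.09. It moved to -0.34 on TPM as deposited and to -0.42 after rescaling to nuclear protein-coding genes, with 928 higher and 3552 lower, and 759 higher and 3875 lower. These 2 scalings put 20.7% and 16.4% of the calls on the higher side, against 40.6% here, so changes near 0 have no fixed sign. Counts of a list on these scalings (called deposited and rescaled below) and under quantile normalization are given beside the main lists that moved with them. The main counts of each list are to be read beside the shares of all features, 25.6% higher and 37.4% lower. Direction went with level: of the 113 features with the highest mean over the 11 libraries, 57 rose and 10 fell, and of 249 averaging under 1 scaled TPM, 0 rose and 188 fell. The weak end is in part set by the filter of 1 TPM in 2 libraries, which the 2 empty vector libraries alone can meet. Features that passed that way could hardly be higher in G1242V. The filter kept 6323 and 6319 features without empty vector replicates 1 and 2, and 6425 to 6432 without any other single library.

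**Figure D1:**
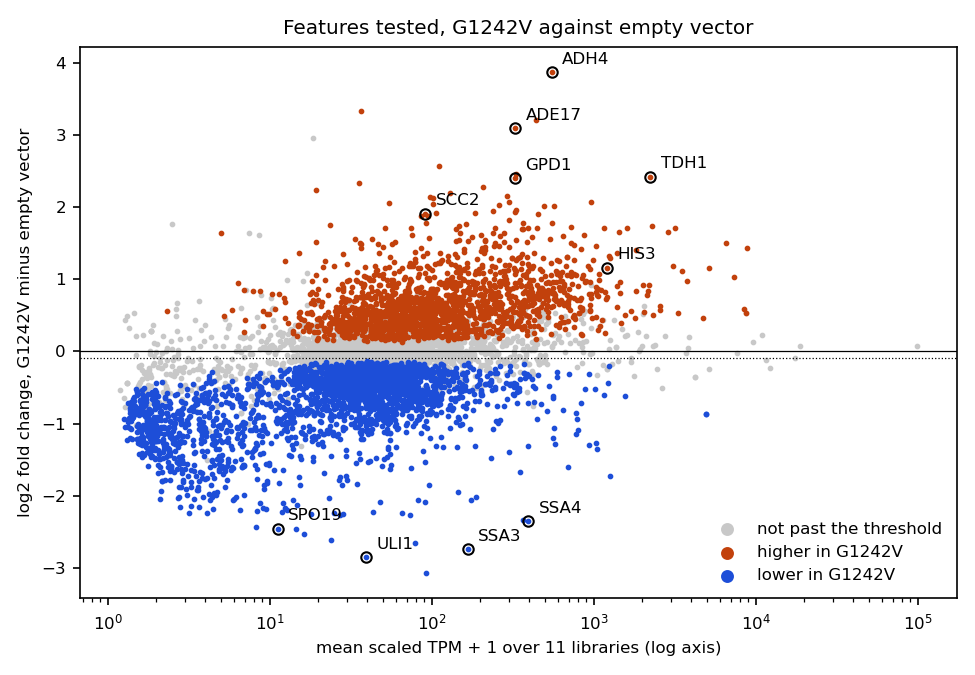
Log2 fold change, G1242V minus empty vector, of the 6432 features tested against their mean scaled TPM + 1 over 11 libraries (log axis); colours mark features called higher or lower, the dotted line is the median of all features. Calls at the low end, where features could pass the filter through the 2 empty vector libraries alone, are nearly all lower in G1242V. The circled genes are described in the text.

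Of 8 genes of the cohesin ring and its regulators, 1 rose and 5 fell, with a median of -0.27. Quantile normalization left 3 falls, as did removal of G1242V replicate 1 or of either empty vector library. The riser was MCD1, the cleavable ring subunit, with 47.9, 56.7 and 46.0 scaled TPM in G1242V against 33.8 and 33.0 in the empty vector (0.57 ± 0.11, limma adjusted p = 0.00157). Its call was lost after rescaling to nuclear protein-coding genes (0.24, adjusted p = 0.0865). ECO1, the acetyltransferase that establishes cohesion, fell most, to 10.8, 11.0 and 9.49 scaled TPM in G1242V, against 21.2 and 19.8 in the empty vector (-0.91 ± 0.12). The SMC subunit genes SMC1 (-0.41 ± 0.10) and SMC3 (-0.48 ± 0.11) also fell. RAD61, whose product promotes cohesin release (-0.31 ± 0.12), and the deacetylase gene HOS1 (-0.19 ± 0.06) passed narrowly, with limma adjusted p = 0.0376 and 0.0217 for RAD61 and HOS1. Both calls were lost without either empty vector library and under quantile normalization, where HOS1 changed sign. IRR1 on chromosome IX (-0.23 ± 0.16) and PDS5 (-0.18 ± 0.10) did not pass, although both were called lower on the 2 scalings that lower the median, IRR1 also with a replicate block and PDS5 also without G1242V replicate 2.

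Condensin, which compacts mitotic chromosomes, and the Smc5/6 complex had 8 of 13 genes lower and 0 higher, with a median of -0.31. On the deposited and rescaled scalings 12 were lower, and under quantile normalization 6, with a median of -0.16. The examples were all of Smc5/6: SMC5 (-0.80 ± 0.06), SMC6 (-0.69 ± 0.09) and the SUMO ligase gene MMS21 (-0.99 ± 0.12). Inner kinetochore genes went both ways, with 3 of 19 higher and 7 lower, and a median that changed sign with the scaling (-0.09 here, 0.10 under quantile normalization). Their share of falls was near the 37.4% of all features, and their share of rises under the 25.6%. The counts were 1 and 11 on the deposited scaling, 0 and 11 on the rescaled one, and 6 and 5 under quantile normalization. MIF2, the centromere-binding CENP-C protein, stood at 21.6, 22.7 and 19.5 scaled TPM in G1242V, against 46.1 and 46.9 in the empty vector (-1.09 ± 0.11). CTF3 (-0.86 ± 0.09) and SCM3, the chaperone of the centromeric histone (-0.56 ± 0.10), fell as well. Of 10 securin, separase and spindle checkpoint genes 6 fell and 0 rose (4 and 2 under quantile normalization), among them the checkpoint genes BUB1 (-1.05 ± 0.09), MAD1 (-0.54 ± 0.05) and MAD2 (-0.40 ± 0.08).

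Ribosomal protein genes and ribosome assembly genes had medians of opposite sign on all 4 scalings. In growing yeast these 2 classes are usually raised and lowered together, under control of nutrient signalling through TOR and protein kinase A. Of 137 cytosolic ribosomal protein genes 112 rose and 0 fell, with a median of 0.74 beside -0.09 for all features. RPL3, a large-subunit protein, stood at 1702, 1257 and 860 scaled TPM in G1242V, against 460 and 456 in the empty vector (1.42 ± 0.25, limma adjusted p = 0.000867). RPL8A stood at 286, 221 and 163 in G1242V, against 71.1 and 67.4 in the empty vector (1.64 ± 0.21), and RPL9B rose by 1.59 ± 0.23. All 3 lay highest in G1242V replicate 1 and lowest in replicate 3. The share of TPM in these genes was 11.9%, 9.83% and 7.75% in G1242V, against 6.8% and 6.82% in the empty vector. Near-identical ribosomal protein pairs share reads, so the split within a pair is an estimate. The count of higher genes was 132 of 137 without G1242V replicate 3, and 76 without empty vector replicate 1. It also depended on the scaling, with 78 higher and 1 lower on the deposited one (median 0.49), 70 higher and 1 lower on the rescaled one (0.41), and 39 higher and 2 lower under quantile normalization (0.31).

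Mitochondrial ribosomal proteins, made from nuclear genes, rose in 63 of 68 and fell in 0, with a median of 0.51. On the deposited scaling 39 rose and 2 fell (median 0.26), and on the rescaled one 31 rose and 2 fell (0.18). MRPL23 stood at 165, 154 and 145 scaled TPM in G1242V, against 81.1 and 80.0 in the empty vector (0.93 ± 0.07), and RSM26 (0.93 ± 0.21) and RSM10 (0.86 ± 0.14) rose alike.

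Ribosome biogenesis factors, which process ribosomal RNA and assemble the subunits, fell in 103 of 111 genes and rose in 0, with a median of -0.78 and a range of -1.45 to -0.14. RPF1, a large-subunit assembly factor, stood at 34.6, 43.9 and 29.0 scaled TPM in G1242V, against 90.9 and 89.6 in the empty vector (-1.33 ± 0.20, limma adjusted p = 0.000332). LTV1, needed for export of the small subunit, stood at 32.3, 37.8 and 26.3 in G1242V, against 83.9 and 81.2 in the empty vector (-1.35 ± 0.19), and the helicase gene DHR2 fell by 1.45 ± 0.24 on the log2 scale. RRN3, the initiation factor of RNA polymerase I, fell to 32.3, 35.4 and 25.6 in G1242V, against 83.5 and 85.2 in the empty vector (-1.42 ± 0.15). In all, 21 of 29 genes of RNA polymerases I and III fell and 2 rose, with a median of -0.54, and 12 fell without either empty vector replicate. The polymerase III factor TFC6 (-0.80 ± 0.12) and subunit RPC82 (-0.71 ± 0.14) fell. MAF1, the repressor of polymerase III (0.74 ± 0.19), and TFC3 on chromosome I (0.99 ± 0.27) rose, though MAF1 lost its call after rescaling to nuclear protein-coding genes (adjusted p = 0.057) and TFC3 without empty vector replicate 1 (adjusted p = 0.0554).

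The letters GATGAG, known as the PAC element and common before ribosome assembly genes, stood within 250 bases before to 50 after the start of the coding sequence on either strand in 105 of 111 of these genes (94.6%). They stood in 18 of 29 polymerase genes (62.1%), in 15 of 137 ribosomal protein genes (10.9%) and in 1172 of 5896 promoters in all (19.9%). Other lists held them too, such as PAU family genes (10 of 19, 52.6%), DNA damage genes (6 of 16, 37.5%) and purine genes (6 of 18, 33.3%). Among genes lower in G1242V 27.9% held them, among those lower by at least 2-fold 21.9%, and among genes higher 13.2%. Since the assembly list makes up part of the lower genes, these shares are not independent of it. The windows below, from RefSeq R64, run 5′ to 3′ toward the gene, show 3 of the genes just described and have the element in capitals. They lie at chrVIII:281366-281431, chrXI:176640-176705 and chrXI:208043-208108, all on the plus strand.
RPF1: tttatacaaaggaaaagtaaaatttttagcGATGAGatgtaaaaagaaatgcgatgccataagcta
LTV1: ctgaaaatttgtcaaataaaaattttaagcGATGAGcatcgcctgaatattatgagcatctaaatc
RRN3: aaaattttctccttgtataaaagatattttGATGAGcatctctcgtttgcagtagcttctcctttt
The elements begin 99, 111 and 174 bases before the start codons of RPF1, LTV1 and RRN3.

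Translation factors had no common direction, with 11 of 35 higher and 6 lower, while the other 3 scalings put 2 or 3 higher and 16 to 18 lower. The higher ones numbered 7 without G1242V replicate 1, 4 without empty vector replicate 1 and 6 without empty vector replicate 2. The median of 0.02 turned negative on every other scaling, with -0.24 on TPM as deposited. HYP2, the main eIF5A gene, stood at 2745, 2620 and 2128 scaled TPM in G1242V, against 1407 and 1367 in the empty vector (0.84 ± 0.14). Its counterpart used when oxygen is scarce, ANB1, fell to 7.96, 7.96 and 4.99 in G1242V, against 32.4 and 30.8 in the empty vector (-2.06 ± 0.21). The elongation factor gene CAM1 rose (0.69 ± 0.06), and the eIF2B subunit genes GCD1 (-0.71 ± 0.12) and GCD6 (-0.60 ± 0.06) fell. Small nucleolar RNAs, which guide modification of ribosomal RNA, rose in 10 of 77 and fell in 4, with 2 higher without empty vector replicate 1 and 8 lower without G1242V replicate 3. The balance turned on the other scalings, with 4 higher and 22 lower on the deposited one, 3 and 26 on the rescaled one, and 7 and 20 under quantile normalization, and the median was 0.07 here and -0.05 to -0.27 on those.

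**Figure D2:**
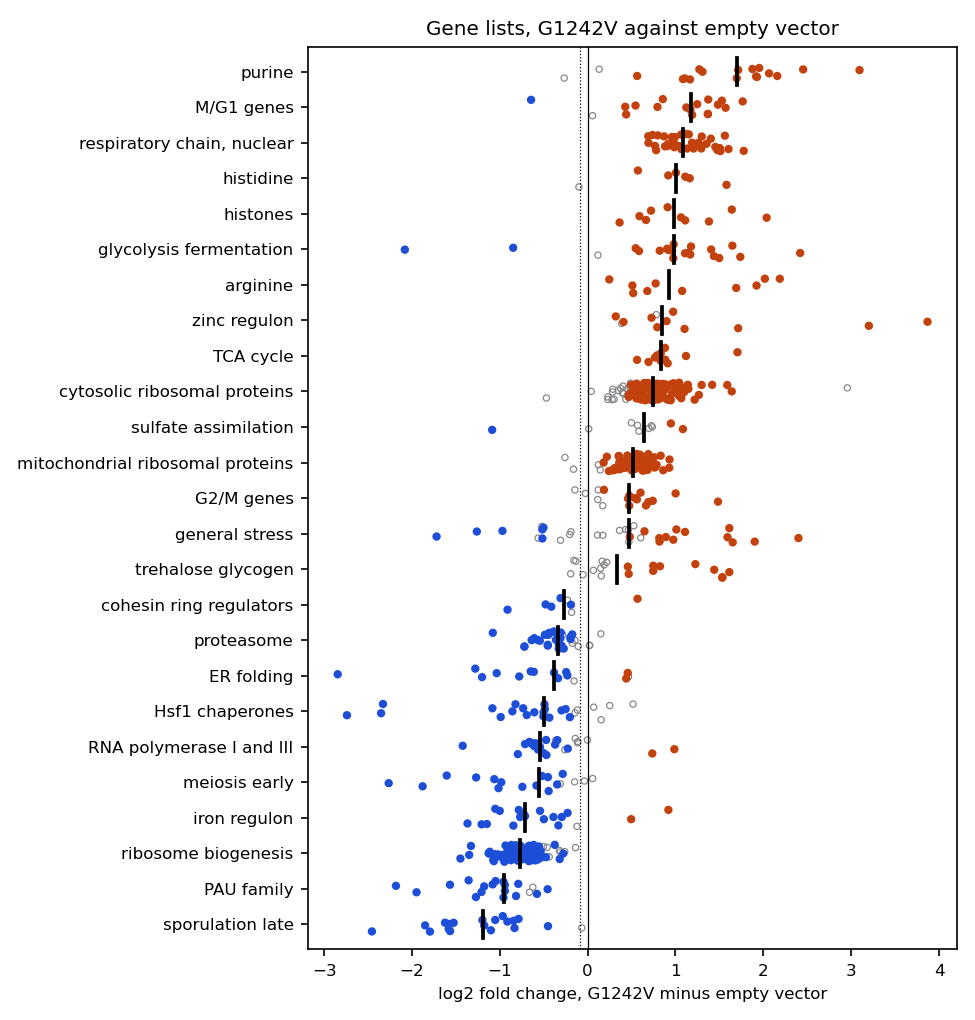
Log2 fold change, G1242V minus empty vector, of each tested member of 25 gene lists; filled points were called higher (orange) or lower (blue), open points were not called, black bars are list medians and the dotted line the median of all features. Purine, M/G1 and respiratory chain genes lie to the right, and PAU and late sporulation genes to the left.

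Of 21 glycolysis and fermentation genes 18 rose and 2 fell, with a median of 0.98. TDH1, a glyceraldehyde-3-phosphate dehydrogenase, stood at 1886, 1665 and 2881 scaled TPM in G1242V, against 384 and 394 in the empty vector (2.42 ± 0.21, limma adjusted p = 1.69e-05). TDH2 (1.74 ± 0.15) and the enolase gene ENO1, at 3097, 2819 and 3692 in G1242V, against 1017 and 1013 in the empty vector (1.65 ± 0.15), followed. The 2 that fell were minor pyruvate decarboxylase genes, PDC6 (-2.08 ± 0.41) and PDC5 (-0.85 ± 0.21). TDH and ENO genes have close copies with which they share reads. All 11 genes of the TCA cycle rose, with a median of 0.83, led by the aconitase gene ACO1 with 684, 598 and 599 scaled TPM in G1242V, against 193 and 189 in the empty vector (1.71 ± 0.14). KGD2 (1.12 ± 0.09) and LPD1 (0.91 ± 0.06), subunits of the 2-oxoglutarate dehydrogenase complex, were further examples.

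All 36 nuclear genes of the respiratory chain and ATP synthase rose, by 0.69 to 1.78 with a median of 1.09. CYC1, cytochrome c, stood at 893, 829 and 706 scaled TPM in G1242V, against 239 and 230 in the empty vector (1.78 ± 0.12, limma adjusted p = 8.37e-06). COX4 of complex IV (1.60 ± 0.16) and QCR9 of complex III (1.56 ± 0.18) rose as well. Of the 8 protein genes of the mitochondrial genome 1 rose and 0 fell, with a median of 0.15 that changed sign with the scaling (-0.19 after rescaling to nuclear protein-coding genes). In the pentose phosphate pathway 5 of 11 genes rose and 0 fell (2 and 2 on the deposited and rescaled scalings, 3 and 2 under quantile normalization), with TAL1 (1.05 ± 0.09) and TKL1 (0.83 ± 0.12) in front.

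Hexose transporter and sensing genes were split, with 7 of 22 higher and 13 lower, or 7 lower under quantile normalization. Some of the 22 passed the filter only through the empty vector libraries and could hardly be higher in G1242V. Without empty vector replicate 1 or 2, 19 met the filter, and the median was -0.45 and -0.41, against -0.65 with both. HXT1, the low-affinity transporter, stood at 255, 223 and 326 scaled TPM in G1242V, against 63.3 and 65.2 in the empty vector (2.03 ± 0.14). The high-affinity transporter HXT2 fell to 40.1, 41.1 and 23.0 in G1242V, against 156 and 169 in the empty vector (-2.24 ± 0.24). HXT7 rose (0.92 ± 0.15) and HXT6 fell (-1.73 ± 0.28), but these 2 genes are nearly identical and their split is uncertain. MIG2, a glucose repressor, rose (1.03 ± 0.16), and RGT1, the repressor of HXT genes, fell (-1.23 ± 0.11). Of 21 glucose-repressed genes 13 fell and 1, MDH2, rose (0.77 ± 0.14), while 20 fell on the rescaled scaling and 6 under quantile normalization. Those that fell included ADH2 (-1.74 ± 0.31), the peroxisomal catalase gene CTA1 (-1.49 ± 0.12) and ICL1 of the glyoxylate cycle (-1.21 ± 0.06).

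Purine synthesis had the highest median of the 55 lists, 1.71, and 16 of 18 genes rose while 0 fell. All strains here carry ade2-1, a mutation of a gene of this pathway. ADE17, which catalyses its last reactions, stood at 634, 592 and 665 scaled TPM in G1242V, against 70.0 and 75.7 in the empty vector (3.10 ± 0.16, limma adjusted p = 2.74e-06), an 8.55-fold difference. ADE13 stood at 522, 488 and 533 in G1242V, against 120 and 124 in the empty vector (2.07 ± 0.13). SHM2, which supplies one-carbon units, stood at 480, 462 and 499 in G1242V, against 105 and 108 in the empty vector (2.16 ± 0.15). The 3 genes differed among the G1242V libraries by far less than from the empty vector. ADE1 on chromosome I rose by 2.45 ± 0.35, with 494, 738 and 471 in G1242V, against 98.0 and 103 in the empty vector.

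Arginine synthesis rose in 10 of 10 genes, with a median of 0.93. On the deposited, rescaled and quantile scalings 7, 7 and 8 rose and 0 fell. ARG1 stood at 1485, 1058 and 870 scaled TPM in G1242V, against 267 and 280 in the empty vector (2.02 ± 0.19), and ARG3 at 347, 259 and 135 in G1242V, against 47.4 and 52.0 in the empty vector (2.19 ± 0.31). ARG56 rose by 1.92 ± 0.18. In each of these genes G1242V replicate 1 was highest and replicate 3 lowest, all above the empty vector. Histidine synthesis rose in 6 of 7 genes, a list that includes the plasmid marker HIS3. HIS4 stood at 820, 616 and 616 in G1242V, against 218 and 234 in the empty vector (1.58 ± 0.15), and HIS5 on chromosome IX rose by 1.11 ± 0.20. Lysine genes (5 of 7), branched-chain genes (9 of 12) and aromatic amino acid and serine genes (12 of 17, with 1 lower) had medians of 0.61, 0.45 and 0.51. Examples are LYS9 (0.64 ± 0.12), the amino acid permease gene BAP3 (1.45 ± 0.13), SER1 (1.27 ± 0.16) and ARO1 (1.07 ± 0.10). Without empty vector replicate 1 the lysine and branched-chain counts were 2 and 4, and without replicate 2 they were 3 and 4. These lists also moved with the scaling: on the deposited, rescaled and quantile scalings lysine genes had 3, 2 and 2 higher with 2, 2 and 1 lower, branched-chain genes 3, 3 and 2 higher with 0, 1 and 2 lower, and aromatic and serine genes 8, 7 and 9 higher with 1, 2 and 1 lower.

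The letters TGACTC, the core to which the amino acid starvation activator Gcn4 binds, stood in the promoters of 12 of 18 purine genes (66.7%), 6 of 7 histidine genes (85.7%) and 6 of 10 arginine genes (60%), over the same window and on either strand. Other lists held them too: 7 of 12 branched-chain genes (58.3%), 3 of 7 lysine genes (42.9%), 7 of 17 aromatic and serine genes (41.2%) and 5 of 12 zinc genes (41.7%). They stood in 8.12% of all 5896 promoters, in 11.5% of those of genes higher in G1242V and in 6.05% of those lower. Since these lists make up part of the higher genes, the shares are not independent of them. Windows of 3 genes described above, read toward the gene with the core or its reverse complement in capitals, come from chrXIII:509422-509487 (minus strand), chrXII:844036-844101 (plus strand) and chrIII:68497-68562 (minus strand) of RefSeq R64.
ADE17: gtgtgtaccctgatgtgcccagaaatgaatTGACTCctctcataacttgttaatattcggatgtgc
ADE13: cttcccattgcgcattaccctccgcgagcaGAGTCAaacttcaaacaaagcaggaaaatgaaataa
HIS4: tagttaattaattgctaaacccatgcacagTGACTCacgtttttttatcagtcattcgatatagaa
The cores begin 177, 216 and 199 bases before the start codons of ADE17, ADE13 and HIS4, and the HIS4 promoter holds a second core not shown. A match in these letters is no measure of binding.

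Nitrogen catabolite repressed genes went both ways, with 7 of 18 higher and 6 lower, and a median whose sign depended on the scaling (-0.04 here, 0.39 under quantile normalization). On the deposited and rescaled scalings 4 were higher and 9 lower, and under quantile normalization 8 and 4. The permease genes GAP1, with 600, 578 and 540 scaled TPM in G1242V, against 178 and 176 in the empty vector (1.69 ± 0.14), and PUT4 (2.06 ± 0.21) rose, as did glutamine synthetase, GLN1 (1.72 ± 0.11). PUT1, which degrades proline (-0.91 ± 0.14), the allantoate permease DAL5 (-0.70 ± 0.09) and the repressor DAL80 (-0.58 ± 0.15) fell. Pyrimidine genes were also mixed, with 3 of 9 higher and 2 lower (0 and 4 on the rescaled scaling), and their median changed sign with the scaling (0.20 here, -0.14 after rescaling to nuclear protein-coding genes).

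Genes of methionine and cysteine metabolism rose in 10 of 23 and fell in 4 (7 and 6 on the rescaled scaling). MET6, methionine synthase, stood at 1178, 1049 and 1548 scaled TPM in G1242V, against 409 and 400 in the empty vector (1.62 ± 0.30), and the S-adenosylmethionine permease SAM3 rose by 1.74 ± 0.14. MET28 on chromosome IX rose by 1.44 ± 0.35. JLP1, a sulfonate dioxygenase used when sulfur is scarce, fell to 10, 9.84 and 6.35 in G1242V, against 57.9 and 56.8 in the empty vector (-2.61 ± 0.21), and the S-methylmethionine permease MMP1 (-1.41 ± 0.24) and sulfatase BDS1 (-0.996 ± 0.17) fell too. Of 10 sulfate assimilation genes 2 rose and 1 fell. Their list median relative to the empty vector mean was -0.008, 0.17 and 1.54 in G1242V replicates 1 to 3, and the median fold change dropped to 0.08 without replicate 3, against 0.64 with it. MET16, which reduces activated sulfate, shows this library with 117, 107 and 265 scaled TPM in G1242V, against 76.5 and 77.5 in the empty vector (0.95 ± 0.31, limma adjusted p = 0.0219). Its call was lost without either empty vector library, on the deposited and rescaled scalings, and with only the groups compared. The high-affinity sulfate permease SUL1 was at 5.56, 6.45 and 13.5 in G1242V, against 17.6 and 18.3 in the empty vector (-1.09 ± 0.33). This call was also lost without either empty vector library, under quantile normalization, and without G1242V replicate 1 or 2. MET22 passed throughout (1.09 ± 0.23).

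**Figure D3:**
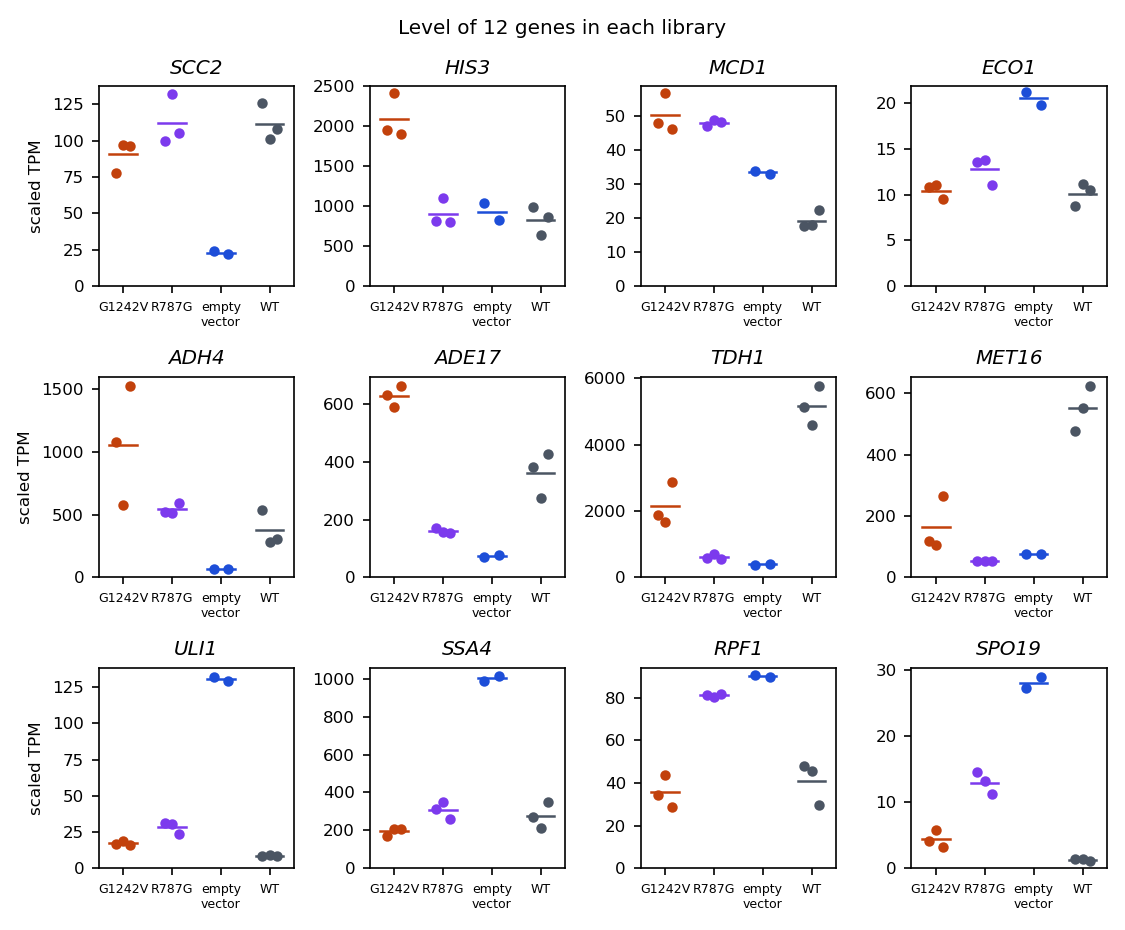
Scaled TPM of 12 genes in each library of the 4 groups, in the order G1242V, R787G, empty vector and WT; points are libraries (replicates left to right) and lines group means. HIS3 is at 1907 or above in all 3 G1242V libraries, MET16 is high in only 1 of them, and SSA4 is at 990 and 1014 in the empty vector libraries.

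Protein-quality genes were lower in G1242V. Of 24 genes of cytosolic chaperones under the heat shock factor Hsf1, 18 fell and 0 rose, with a median of -0.50. The Hsp70 genes SSA3 and SSA4 stood out. SSA4 stood at 173, 206 and 209 scaled TPM in G1242V, against 990 and 1014 in the empty vector (-2.35 ± 0.19, limma adjusted p = 1.33e-05), and SSA3 at 71.3, 84.8 and 52.6 in G1242V, against 467 and 457 in the empty vector (-2.74 ± 0.20). BTN2, which gathers misfolded proteins, stood at 178, 208 and 188 in G1242V, against 957 and 974 in the empty vector (-2.33 ± 0.10). Both empty vector libraries lay far above every G1242V library in all 3 genes. Of 33 proteasome genes 26 fell and 0 rose, with a median of -0.34, including RPN4, the transcription factor for the proteasome (-1.08 ± 0.13), and the ATPase subunits RPT2 (-0.72 ± 0.07) and RPT3 (-0.72 ± 0.07).

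Of 15 genes of folding in the endoplasmic reticulum 11 fell and 2 rose, and the list reached lowest with ULI1, a gene known to be induced by the unfolded protein response. ULI1 stood at 17, 18.7 and 16.3 scaled TPM in G1242V, against 132 and 129 in the empty vector (-2.85 ± 0.11, limma adjusted p = 8.79e-07). The luminal Hsp70 KAR2 stood at 489, 469 and 381 in G1242V, against 1059 and 1098 in the empty vector (-1.28 ± 0.10), and the oxidase gene ERO1 fell by 1.20 ± 0.14 on the log2 scale.

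General stress genes of the Msn2/4 response were mixed, with 13 of 32 higher and 6 lower, or 3 lower without either empty vector library. The counts were 7 higher and 6 lower under quantile normalization. CTT1, cytosolic catalase, stood at 557, 569 and 964 scaled TPM in G1242V, against 172 and 187 in the empty vector (1.90 ± 0.29). GPD1, which makes glycerol under osmotic stress, stood at 497, 457 and 589 in G1242V, against 95.1 and 97.1 in the empty vector (2.40 ± 0.11, limma adjusted p = 1.83e-06), and its partner GPP1, on chromosome IX, rose by 2.07 ± 0.22. The small heat shock gene HSP26 went the other way, with 483, 616 and 545 in G1242V, against 1782 and 1820 in the empty vector (-1.72 ± 0.26), and TMA10 fell too (-0.97 ± 0.17). YGP1, a secreted glycoprotein of nutrient limitation, rose (1.65 ± 0.13). Trehalose and glycogen genes rose in 10 of 20 and fell in 0, against 9 and 3 on the deposited scaling and 7 and 4 on the rescaled one, where the median was 0.003. In front were PGM2 (1.61 ± 0.21), the glycogen phosphorylase GPH1 (1.53 ± 0.24) and the glycogen synthase GSY2 (1.53 ± 0.15). The list median of the general stress genes was 0.09, 0.32 and 0.96 in G1242V replicates 1 to 3, and the median fold change was 0.22 without replicate 3, against 0.47 with it.

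Redox genes rose in 15 of 31 and fell in 4, with 9 higher without empty vector replicate 2. This balance rested on the scaling, with 7 higher and 6 lower on the deposited one, 5 and 9 on the rescaled one, and 7 and 4 under quantile normalization, and a median of 0.34 here and 0.006 on the rescaled one. SOD1, the copper-zinc superoxide dismutase, stood at 1367, 1378 and 1472 scaled TPM in G1242V, against 554 and 539 in the empty vector (1.36 ± 0.09). The peroxiredoxin TSA2 rose by 1.28 ± 0.30, with 147 in G1242V replicate 3, 61.7 and 72.2 in the other replicates, and 33.5 and 37.0 in the empty vector. The old yellow enzyme OYE3 fell (-1.30 ± 0.28). Of 18 drug efflux genes 11 rose and 3 fell (6 and 5 on the rescaled scaling), among them the exporter ATR1 (1.19 ± 0.12), the weak acid pump PDR12 (1.00 ± 0.21) and the polyamine exporter TPO2 (0.94 ± 0.13), which rose, and PDR10 (-0.97 ± 0.08), which fell. Of 6 aryl alcohol dehydrogenase genes 3 fell and 1 rose (0 rose on the other scalings, and 2 fell under quantile normalization), and AAD6 (-1.35 ± 0.20) and AAD14 (-0.72 ± 0.15) were lower. Relative to the empty vector mean, the median of this list was -0.94, -0.70 and 0.01 in G1242V replicates 1 to 3.

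Metal and vitamin genes moved by regulon. Of 12 genes under the zinc-responsive activator Zap1 10 rose and 0 fell, with a median of 0.85. ADH4, an alcohol dehydrogenase used when zinc is scarce, had the highest rise of any gene with a standard name, with 1077, 576 and 1526 scaled TPM in G1242V, against 66.2 and 66.3 in the empty vector (3.87 ± 0.37, limma adjusted p = 2.81e-05). ZPS1, a cell surface protein, stood at 703, 367 and 1022 in G1242V, against 67.0 and 70.6 in the empty vector (3.20 ± 0.46). Both genes varied over 2-fold among the G1242V libraries, with replicate 2 lowest, and both lay above the empty vector in each. The zinc transporter ZRT1 rose with less spread, at 1831, 1713 and 1808 in G1242V, against 537 and 548 in the empty vector (1.71 ± 0.18).

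Iron regulon genes fell in 16 of 19 and rose in 2, with a median of -0.71. TIS11, which degrades messengers of iron-using proteins, stood at 17.3, 19.9 and 23.1 scaled TPM in G1242V, against 49.9 and 56.5 in the empty vector (-1.37 ± 0.16). The siderophore genes FIT3 (-1.21 ± 0.10) and ARN2 (-1.15 ± 0.12) fell. Thiamine genes fell in 13 of 19 and rose in 1 (9 and 4 under quantile normalization), with THI4, which makes the thiazole ring, at 104, 156 and 62.7 in G1242V, against 393 and 432 in the empty vector (-2.02 ± 0.30). THI5 (-1.83 ± 0.14) and THI12 (-1.56 ± 0.15), which are near-identical, fell from low levels. Of 15 phosphate genes 4 rose and 2 fell (2 and 4 on the rescaled scaling), with PHO5, the secreted acid phosphatase (1.5 ± 0.34), and PHM8 (1.46 ± 0.16) higher and GIT1 lower (-0.98 ± 0.14). The share of rises was near the 25.6% of all features, and that of falls under the 37.4%. The median of this list changed sign with the scaling (0.20 here, -0.14 after rescaling to nuclear protein-coding genes).

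Of 27 ergosterol genes 19 rose and 2 fell, with a median of 0.44, while 10 rose and 8 fell on the rescaled scaling and 13 rose and 5 fell on the deposited one and under quantile normalization. ERG28 (1.09 ± 0.13), ERG26 (0.99 ± 0.12) and HMG1, an HMG-CoA reductase (0.95 ± 0.12), rose, while those that fell were both sterol-responsive activators, UPC2 (-0.87 ± 0.08) and ECM22 (-0.64 ± 0.07). Hypoxic genes fell in 11 of 17 and rose in 5, with a median of -0.91 (7 and 6 under quantile normalization, median -0.24). The mannoprotein genes TIR1, with 2.87, 3.34 and 1.5 scaled TPM in G1242V, against 14.1 and 12.5 in the empty vector (-2.04 ± 0.21), and TIR2 (-1.36 ± 0.09) were among the falls. The fatty acid desaturase OLE1 (1.25 ± 0.22) and the metal transporter FET4 (0.73 ± 0.12) rose. The PAU family, seripauperin mannoproteins that share reads among themselves, fell in 17 of 19 and rose in 0, with a median of -0.96. Under quantile normalization 7 of the 19 fell, with a median of -0.34. PAU9 stood at 28.3, 41.0 and 35.3 in G1242V, against 105 and 104 in the empty vector (-1.57 ± 0.18).

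Cell wall genes rose in 10 of 20 and fell in 4 (7 and 7 under quantile normalization), with a median whose sign depended on the scaling (0.29 here, -0.11 under quantile normalization). CWP1, a wall mannoprotein, stood at 444, 407 and 317 scaled TPM in G1242V, against 79.7 and 77.6 in the empty vector (2.28 ± 0.20), and CWP2 at 4580, 4230 and 4170 in G1242V, against 1395 and 1247 in the empty vector (1.71 ± 0.12). KDX1 rose (1.15 ± 0.16), while GSC2, a glucan synthase (-0.87 ± 0.07), and SLT2, the cell integrity kinase (-0.51 ± 0.07), fell. Vacuolar and autophagy genes were split, with 7 of 14 higher and 4 lower (4 and 7 on the deposited and rescaled scalings, 3 and 5 under quantile normalization) and a median of either sign (0.09 here, -0.24 after rescaling to nuclear protein-coding genes). The vacuolar aminopeptidase APE1, at 267, 266 and 411 in G1242V, against 94.7 and 92.1 in the empty vector (1.71 ± 0.17), and its receptor ATG19 (0.84 ± 0.13) rose. The protease gene PRB1 (-1.06 ± 0.10), ATG8 (-0.75 ± 0.14) and ATG11 (-0.64 ± 0.07) fell.

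Cell cycle lists differed by stage. Genes of the M/G1 boundary, many of which separate daughter from mother, rose in 16 of 18 and fell in 1, with a median of 1.18. DSE2, a daughter cell glucanase, stood at 213, 163 and 240 scaled TPM in G1242V, against 61.2 and 57.0 in the empty vector (1.77 ± 0.20), EGT2 rose by 1.57 ± 0.14 and RME1, a repressor of meiotic entry, by 1.53 ± 0.14. The chitin synthase CHS1 was the 1 that fell (-0.65 ± 0.07). G2/M genes rose in 13 of 18 and fell in 0 (7 and 2 on the deposited scaling, 6 and 3 on the rescaled one), with the mitotic cyclin CLB1 at 81.4, 78.4 and 56.1 in G1242V, against 24.8 and 24.6 in the empty vector (1.48 ± 0.16) and CLB2 higher by 0.74 ± 0.12. All 10 histone genes rose, by 0.36 to 2.04, with HTA2 at 195, 183 and 143 in G1242V, against 39.8 and 42.8 in the empty vector (2.04 ± 0.28), and HTB2 (1.64 ± 0.17) and HTA1 (1.38 ± 0.23) next. Histone gene pairs share reads.

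G1/S genes had no common direction, with 5 of 32 higher and 9 lower (8 higher without G1242V replicate 3, and 3 without either empty vector replicate), and a median of either sign (-0.08 here, 0.05 under quantile normalization). On the deposited scaling 3 were higher and 17 lower, on the rescaled one 3 and 19, and under quantile normalization 9 and 9. The G1 cyclins CLN1, at 47.9, 48.0 and 40.7 scaled TPM in G1242V, against 21.3 and 20 in the empty vector (1.10 ± 0.15), and CLN2 (0.95 ± 0.19) rose, with the repressor YOX1 (0.72 ± 0.14). The replication genes DPB2 (-1.03 ± 0.09) and CDC45 (-0.80 ± 0.11) and the polarity gene GIC2 (-0.54 ± 0.11) fell. Of 21 genes of replication origins and forks 10 fell and 2 rose (6 fell without empty vector replicate 1, and 17 on the rescaled scaling), with TAH11, which loads the replicative helicase, lowest (-1.09 ± 0.11) and SLD5 (-0.47 ± 0.12) and SLD2 (-0.42 ± 0.08) also lower. Of 16 DNA damage genes 7 fell and 2 rose, a share of falls not far from the 37.4% of all features. On the deposited and rescaled scalings 10 fell and 0 rose, and under quantile normalization 8 fell and 1 rose. HUG1, an inhibitor of ribonucleotide reductase, stood at 14.8, 14.4 and 9.40 in G1242V, against 53.9 and 55.9 in the empty vector (-2.04 ± 0.24), and RNR3 on chromosome IX (-1.23 ± 0.13) and RAD54 (-1.10 ± 0.11) fell as well.

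Mating genes were divided. Of 13 genes of a-type cells and the pheromone response 5 rose and 6 fell. The a-factor gene MFA2 (1.11 ± 0.15), the receptor gene STE2 (0.85 ± 0.11) and ASG7 (1.26 ± 0.13) rose, while FUS1, at 5.54, 5.25 and 3.87 scaled TPM in G1242V, against 18.0 and 16.3 in the empty vector (-1.64 ± 0.15), AGA1 (-1.45 ± 0.16) and KAR4 (-0.73 ± 0.12), which pheromone is known to induce, fell. SAG1, the alpha-agglutinin gene, fell (-0.78 ± 0.09).

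Meiotic and sporulation RNAs, which haploid cells in mitotic growth normally keep low, were detected in the empty vector and lower in G1242V. Early meiotic genes fell in 14 of 18 and rose in 0, with a median of -0.55 (7 and 3 under quantile normalization, median -0.18). REC104, needed for meiotic recombination, stood at 14.0, 16.0 and 10.4 scaled TPM in G1242V, against 67.0 and 68.3 in the empty vector (-2.27 ± 0.15), and SPO13 (-1.88 ± 0.14) and REC102 (-1.61 ± 0.12) fell as well. Late sporulation genes fell in 19 of 20, with a median of -1.19 (13 and -0.605 under quantile normalization). Without empty vector replicate 1 or 2, 19 of the 20 met the filter, with medians of -1.25 and -1.15. SPO19 stood at 4.11, 5.76 and 3.29 in G1242V, against 27.2 and 28.9 in the empty vector (-2.46 ± 0.17, limma adjusted p = 8.35e-06), GAS2 at 16.4, 20.2 and 11.2 in G1242V, against 58.5 and 58.8 in the empty vector (-1.85 ± 0.22), and the kinase SPS1 fell by 1.796 ± 0.16 on the log2 scale. SPO19 averaged 1.33 and GAS2 6.33 in WT. Falls also outnumbered rises beyond these lists. Of 499 features tested that match no reference gene, 334 fell and 17 rose, where 37.4% of all features fell and 25.6% rose. Weakly expressed features did likewise, with 468 of 689 averaging 1 to 10 scaled TPM lower and 16 higher. Weak features that passed the filter through the empty vector libraries alone can add to these falls. Before scaling, 6014 to 6085 features reached 1 TPM in G1242V libraries, against 6415 and 6423 in the empty vector. Scaling lowers the empty vector values (factors 0.8824 and 0.8996) and raises those of G1242V (1.04 to 1.081).

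Among the 15 highest rises were 5 genes of no list, GPP1 included. ICY1, a gene of uncertain role, stood at 239, 212 and 212 scaled TPM in G1242V, against 34.4 and 38.1 in the empty vector (2.57 ± 0.15). CYB2, mitochondrial lactate dehydrogenase (2.14 ± 0.28), the alcohol dehydrogenase gene ADH5 (2.12 ± 0.28) and RPI1 on chromosome IX (2.23 ± 0.15) rose alike. Among the 15 deepest falls, FRM2, a nitroreductase-like gene, stood at 11.2, 12.3 and 9.74 in G1242V, against 73.1 and 76.4 in the empty vector (-2.66 ± 0.54). CHA1, which breaks down serine and threonine (-2.25 ± 0.22), GID10, a substrate receptor for protein degradation (-2.23 ± 0.22), and PRM7 (-2.20 ± 0.26) also fell. LSO1 (-2.46 ± 0.25), BSC1 (-2.53 ± 0.38) and DPA10 (-2.27 ± 0.19) completed the falls outside the lists.

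The 3 G1242V cultures differed from one another along some of these lists and not along others. Relative to the empty vector mean, the median of the cytosolic ribosomal protein genes was 1.06, 0.75 and 0.41 in replicates 1 to 3, and that of ribosome biogenesis genes -0.74, -0.58 and -1.01. Respiratory chain genes stood at 1.10, 1.03 and 1.10, purine genes at 1.71, 1.63 and 1.73 and late sporulation genes at -1.25, -1.15 and -1.22. The sulfate and general stress medians given above were highest in replicate 3, and methionine and cysteine genes stood at 0.33, 0.40 and 0.98 in replicates 1 to 3. For the cytosolic ribosomal protein genes the WT medians were -1.26, -1.66 and -1.42, on the other side of the empty vector, and for sulfate genes they were 1.65, 1.67 and 2.58. Whether the density of the cultures had a part in this was not tested. Without G1242V replicate 3, 3962 features differed, 1646 higher and 2316 lower.

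**Figure D4:**
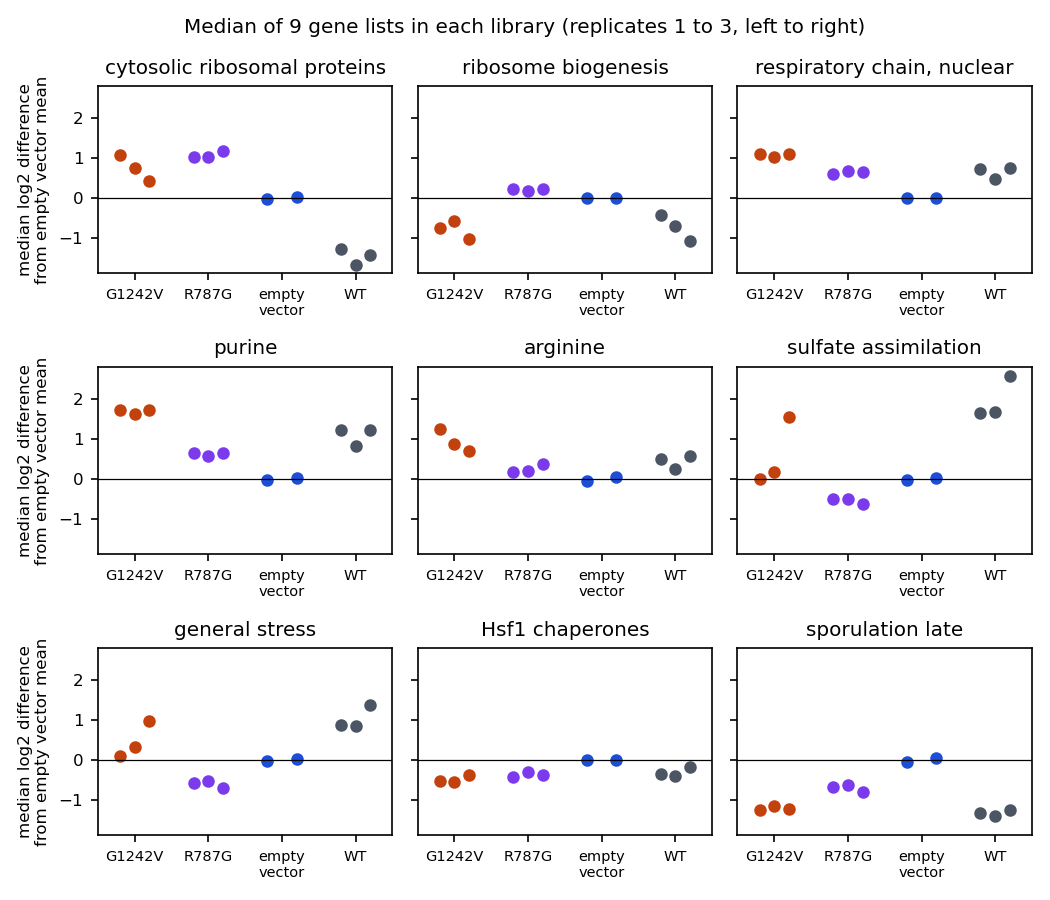
Median over each of 9 gene lists of the log2 difference from the empty vector mean, one point per library, in the order G1242V, R787G, empty vector and WT. G1242V replicate 3 lies apart in sulfate assimilation (1.54) and general stress genes (0.96), and the G1242V points nearly coincide for respiratory chain, purine and late sporulation genes.

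The distance of the other variant, R787G, from the empty vector was set beside that of G1242V. Both comparisons share the empty vector libraries, so the test of their difference is G1242V against R787G, in which 2972 features differed (46.2%), 1279 higher in G1242V (19.9%) and 1693 lower (26.3%). Of 111 ribosome biogenesis genes 110 were lower in G1242V than in R787G, with a median of -1.01, and against the empty vector the medians were -0.78 in G1242V and 0.21 in R787G. RPF1 averaged 81.2 and LTV1 72.6 scaled TPM in R787G. Cytosolic ribosomal protein genes had medians of 0.74 in G1242V and 1.08 in R787G against the empty vector, and 1 of 137 higher and 26 lower in G1242V than in R787G (79 to 82 lower on the other 3 scalings).

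Genes of respiration, purine and arginine synthesis were higher in G1242V than in R787G. Respiratory chain genes were higher in G1242V than in R787G in 35 of 36 (median 0.45), purine genes in 15 of 18 (1.08) with 1 lower, arginine genes in 9 of 10 (0.84) and TCA cycle genes in 11 of 11 (0.41). Under quantile normalization the respiratory and TCA counts were 23 and 6. ADE17 averaged 161 scaled TPM in R787G and differed between the variants by 1.97 (limma adjusted p = 4.78e-05). General stress genes were higher in G1242V in 23 of 32 (1.13) with 1 lower, and their medians against the empty vector were 0.47 in G1242V and -0.59 in R787G. CTT1 averaged 139 in R787G and differed between the variants by 2.27 (limma adjusted p = 0.000304).

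For other lists the values of both variants stand side by side. Against the empty vector, Hsf1 chaperone genes had medians of -0.50 in G1242V and -0.38 in R787G, proteasome genes -0.34 in G1242V and -0.22 in R787G, and histone genes 0.99 in G1242V and 0.70 in R787G. Between the variants, 2 of 10 histone genes were higher in G1242V and 0 lower, and 13 of 33 proteasome genes were lower (22 to 27 on the other 3 scalings). Late sporulation genes were lower in G1242V than in R787G in 15 of 20 with 1 higher (8 lower under quantile normalization), and the medians against the empty vector were -1.19 in G1242V and -0.66 in R787G. Zinc genes had medians of 0.85 in G1242V and 0.64 in R787G, and 2 of 12 were higher in G1242V than in R787G. ZRT1 averaged 1770 in R787G, and G1242V did not differ from it past the threshold (0.01, limma adjusted p = 0.96). Iron regulon genes were lower in G1242V than in R787G in 14 of 19 with 1 higher, and their medians against the empty vector were -0.71 in G1242V and 0.01 in R787G. SCC2 stood at 113 ± 16.9 scaled TPM (SD, n = 3) in R787G, and G1242V did not differ from it past the threshold (-0.31, limma adjusted p = 0.0674). That depended on the scaling. Of the 2 loader genes, SCC2 and SCC4, only SCC4 was called lower in G1242V than in R787G here, but both were on each of the other 3 scalings.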

How the data were processed

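The authors deposited TPM for each feature in each library. The submitters' processing notes list bcl2fastq 2.17, STAR, RSEM and edgeR, with sacCer3 as the build. Neither annotation nor strandedness of quantification is given in the sources used here. TPM hold no sequencing depth, so counting error is unknown, count models were left aside, and any class with a larger share of a library lowers the rest.

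The table listed 7036 features, and 1 row with shifted fields was dropped. RefSeq R64 supplied names to 5955 through locus tags and to 126 through symbols, leaving 954 without a match. Libraries were scaled by median-of-ratios over 5221 genes that reached 10 TPM throughout. For testing, a feature needed 1 TPM in 2 libraries or more, which 6432 met. The model was limma 3.58.1 (R 4.3.3) on log2(scaled TPM + 1), with trended eBayes, two-sided p and Benjamini-Hochberg adjustment over all features at 0.05. It was fitted once to all 11 libraries with no covariates, and the code was tested on simulated data.

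The genes, lists and members were chosen with earlier results of these data known, and lists are described only by counts and medians. The ribosomal protein list was corrected after the data were seen, because its pattern had also caught RPP1 of RNase P. Genes were named by a rule: SCC2, SCC4, HIS3 and cohesin genes, then the 15 largest called rises and the 15 largest called falls (standard symbol, no overlap of groups, a higher group at 10 scaled TPM or more), then for each list with 25% of its tested members called its 3 largest rises and 3 largest falls. It took 232 genes, and most whose call an alternative ends are left to the closing section. Promoter windows ran from 250 bases before to 50 after the start of 5896 coding genes.

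The alternatives were quantile normalization, TPM left as deposited, TPM rescaled to the nuclear protein-coding genes, pseudocounts 0.1 and 5, filters of none and of 10 TPM, untrended and robust eBayes, the compared groups alone, a replicate block, removal of chromosomes I and IX, and removal of each library in turn. Python 3.11.15 and matplotlib 3.10.9 drew the figures.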

Additional observations from a re-analysis of the deposited data

How the results depend on the processing

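With 2 empty vector libraries, small changes are the least certain, and leaving 1 out assumes that the other varies like the rest. Of 232 named genes 189 kept call and sign under every alternative run. Leaving out single libraries gave 2924 to 4225 features for G1242V against the empty vector (1203 to 1712 higher, 1721 to 2523 lower), fewest without empty vector replicate 1, where 27 named genes lost their call, and 2240 to 3215 for G1242V against R787G. On TPM as deposited 928 were higher, and after rescaling to nuclear protein-coding genes 759 were higher and 3875 lower. Against R787G, 797 and 810 were higher on these scalings. The filter at 10 TPM and the other settings kept counts within 1.5 times. Whether replicate numbers pair cultures could not be decided. The deviations of the 2 empty vector libraries mirror each other, with correlations of 0.0618 and -0.135 to the same-numbered G1242V libraries. Same-numbered G1242V and WT libraries correlated at 0.331, 0.0282 and 0.345, and G1242V and R787G libraries at -0.205, -0.152 and 0.0117. With a replicate block 3891 features differed, 1580 higher and 2311 lower. The sign turned for HOS1 (0.047), HAC1 (-0.001), SML1 (-0.004) and RNR2 (-0.288) under quantile normalization, for PHO8 (-0.037) and RNR2 (-0.082) on TPM as deposited, and for PHO8 (-0.118), IML3 (-0.056), PSF2 (-0.018) and RNR2 (-0.163) after rescaling to nuclear protein-coding genes. The cause was not tested. Calls of AAD10, ATX1, FPR2, HMX1, KIN3, LYS20, PHO3, RAD61, SOL4, URA10 and WIP1 were each lost under several alternatives.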
